A study of Arabidopsis thaliana with 4 samples.

Results

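Dehydrins are the group 2 late embryogenesis abundant (LEA) proteins of plants, and 9 Arabidopsis thaliana genes encoding them were taken by locus ID from the 33610 gene rows of a count table: RAB18 (AT5G66400), COR47 (AT1G20440), ERD10 (AT1G20450), ERD14 (AT1G76180), LTI30 (AT3G50970), XERO1 (AT3G50980), HIRD11 (AT1G54410), AT2G21490 and AT4G38410. Another gene of the family, AT4G39130, is not among the 9 and had 1 count in the 3 ABA-treated mutant libraries, 1 in the 3 ABA-treated wild type libraries and none in the untreated ones. Polyadenylated RNA of 2-week-old seedlings grown on agar medium was sequenced from 4 groups of 3 libraries each. They were the lincRNA11195 mutant, named after a long intergenic noncoding RNA, after 12 h of the hormone abscisic acid (ABA), that mutant untreated, Col-0 wild type after 12 h of ABA, and Col-0 wild type untreated. The labels name 1 mutant and give neither its allele nor the ABA dose, and the noncoding RNA itself was not analysed here. The series text calls the 3 libraries of a group biological replicates without saying whether they came from separate plates or days, so every p-value measures the spread between these libraries.

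Dehydrins are hydrophilic, mostly disordered proteins that accumulate when plant cells lose water, in drought, salt, cold and drying seeds. They carry a lysine-rich stretch, the K-segment, which folds into a helix on membranes and partner proteins, and many also carry a run of serines that can be phosphorylated (S-segment) or a short Y-segment. ABA acts through basic leucine zipper (bZIP) factors that bind ABA-responsive elements (ABREs) in target promoters, whereas cold and dehydration act largely through CBF and DREB factors at the DRE/CRT element, and dehydrin genes are textbook targets of both routes.

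Total counts ranged from 14691544 to 22477294 per library, and 3 counts, used below as the limit of detection, corresponded to 0.133 to 0.204 CPM (counts scaled to library size). Levels are CPM with library sizes adjusted by TMM (trimmed mean of M values) factors. Differences are log2 fold changes from edgeR's quasi-likelihood test with Benjamini-Hochberg adjustment over the 21322 genes tested, called at an adjusted p under 0.05. Their standard errors (SE) were computed from the log2 fold change and the F statistic of that test, with the spread of a gene estimated over all 12 libraries. The seedling label was checked against tissue markers. All 5 leaf markers and all 6 root markers had counts, and the 7 dry seed markers summed to between 0.0509 and 1.57 CPM in a library, with 2 of them at 0 in all 12. The summed leaf markers lay between 3752 and 6911 CPM in ABA-treated mutant, 5241 and 12213 CPM in untreated mutant, 7182 and 8504 CPM in ABA-treated wild type, and 29845 and 34722 CPM in untreated wild type libraries. The untreated wild type therefore stood apart from the other 3 groups in leaf photosynthesis transcripts, and the part of this in the dehydrin differences was not tested. Fewer cells of a type and less RNA per cell cannot be told apart in RNA from whole seedlings.

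The 9 genes differ in the parts they carry, counted here in proteins translated from the RefSeq TAIR10.1 annotation. A 6-residue core of the K-segment (lysine or arginine, a small aliphatic residue, lysine or methionine, an acidic residue, lysine or glutamine, then isoleucine, leucine or phenylalanine, a pattern drawn with the sequences in view) occurred 6 times in LTI30, 3 times each in COR47 and ERD10, once in HIRD11 and 2 times in each of the other five. COR47, ERD10 and ERD14 form an acidic subgroup, with 71.0% identity over the aligned residues between COR47 and ERD10, 69.2% between COR47 and ERD14 and 71.6% between ERD10 and ERD14. RAB18 is rich in glycine (33.9% of 186 residues), and 13.5% of LTI30 and 13.3% of HIRD11 residues are histidine. A run of at least 4 serines was present in every member except LTI30. The coding bases of the core nearest the C-terminus are printed for each member, 5′ to 3′ on the coding strand, because this stretch is what makes the 9 a family.

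RAB18: aagatcaaggaaaagctt
COR47: aagatcaaagagaagctt
ERD10: aagatcaaagagaagctt
ERD14: aagattaaggagaagctt
LTI30: aagattaaagagaagctt
XERO1: aagatcaaagagaagctt
HIRD11: aagatcaaagacaagatc
AT2G21490: aagatcaaggacaagctt
AT4G38410: aagatcaaagagaagctt

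Members of the family also sit side by side. COR47 and ERD10 lie on chromosome 1 on the same strand, 1029 bases apart, and LTI30 and XERO1 lie on chromosome 3 on the same strand, 313 bases apart, with 0 annotated genes between the members of either pair. The longest exact stretch shared by the coding sequences of any pair was 32 bases, between COR47 and ERD10, so reads of these genes can mostly be told apart. RAB18 overlaps the gene AT5G66410 on the other strand by 11 bases, and the sources used here do not say whether counting used the strand.

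Promoters of 3 members are printed because these genes had the largest ABA responses of the family, and they hold different elements. Each run is the 250 bases before the annotated start in RefSeq TAIR10.1, 5′ to 3′ on the strand of the gene, with matches to the ABRE core ACGTG or the DRE/CRT core CCGAC on either strand in capitals. RAB18 is at chr5:26519448-26519697 (minus strand), LTI30 at chr3:18940393-18940642 (plus strand) and XERO1 at chr3:18941675-18941924 (plus strand).

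RAB18: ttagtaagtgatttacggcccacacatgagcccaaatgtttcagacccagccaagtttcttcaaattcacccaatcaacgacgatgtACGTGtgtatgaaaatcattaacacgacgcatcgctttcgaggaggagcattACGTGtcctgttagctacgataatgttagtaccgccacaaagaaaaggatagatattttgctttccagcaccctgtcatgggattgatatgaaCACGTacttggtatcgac
LTI30: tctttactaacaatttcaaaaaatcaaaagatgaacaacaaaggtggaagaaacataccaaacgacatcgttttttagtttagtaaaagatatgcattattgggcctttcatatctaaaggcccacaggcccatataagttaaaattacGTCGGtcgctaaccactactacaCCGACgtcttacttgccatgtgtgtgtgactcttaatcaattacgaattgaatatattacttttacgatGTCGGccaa
XERO1: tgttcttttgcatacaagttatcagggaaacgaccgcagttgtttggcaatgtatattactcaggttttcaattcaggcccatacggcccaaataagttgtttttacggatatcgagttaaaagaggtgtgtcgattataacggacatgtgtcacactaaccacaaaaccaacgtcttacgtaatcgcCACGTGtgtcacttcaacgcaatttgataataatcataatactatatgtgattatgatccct

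RAB18 held 3 ABRE cores and no DRE/CRT core in this window, LTI30 held 3 DRE/CRT cores and no ABRE core, and XERO1 held 2 ABRE cores, which are the same 6 bases read on both strands. Among the 9 members, 6 had an ABRE core and 2 had a DRE/CRT core, while 22.9% and 12% of the 27443 nuclear protein-coding promoters of this length held these motifs. The ABRE core was in RAB18, ERD14 and XERO1, which rose after ABA (below). It was also in HIRD11 and AT4G38410, not called after ABA in the 12-library fit, and in AT2G21490, which was not tested. The DRE/CRT core was in LTI30 and AT2G21490. Whether the motifs go with the ABA response was not tested. COR47 and ERD10 had neither motif in this window. In the 500 bases upstream, ERD10 had 4 ABRE core matches, which are a pair of palindromes each read on both strands, and COR47 and RAB18 had 1 DRE/CRT core each, while 35.5% of all these promoters held an ABRE core and 21.4% a DRE/CRT core at that length. The lack of a match says only that these letters are not in the window, which starts from the most upstream annotated transcript. A match is a string of letters and not a measured binding site.

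**Figure D1:**
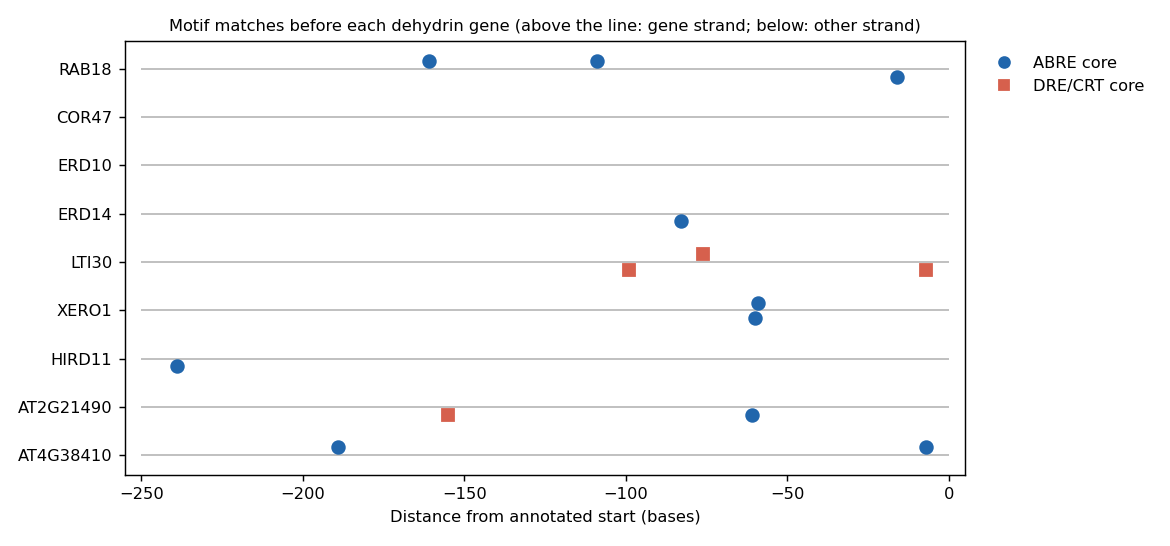
Matches to the ABRE core (blue circles) and the DRE/CRT core (orange squares) in the 250 bases before the annotated start of each of the 9 dehydrin genes, by distance from the start in bases; symbols above a line are on the strand of the gene, those below on the other strand. RAB18 has 3 ABRE cores, LTI30 has 3 DRE/CRT cores, and COR47 and ERD10 have none of either.

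ABA raised 6 of the 8 dehydrins that could be tested, RAB18, COR47, ERD10, ERD14, LTI30 and XERO1, and it did so in both genotypes. In the mutant, 6 were called higher and 0 lower after ABA, where 21.5% of all tested genes were called higher and 21.1% lower. In wild type, 6 were called higher and 0 lower, where 25.2% of all tested genes were called higher and 28.2% lower. At an unadjusted p under 0.05 the count of lower dehydrins was also 0 in each genotype, and DESeq2 gave 0 in each. The median log2 fold change of the 8 was 2.45 in the mutant and 2.66 in wild type, beside medians of 0.00 and -0.03 over all tested genes. The remaining pair, HIRD11 and AT4G38410, did not pass the test in either genotype, and AT2G21490 had too few counts to be tested. Tissue markers moved with ABA too. The 6 root markers summed to between 17.2 and 34.6 CPM in ABA-treated mutant libraries, against 46.6 to 103 CPM in untreated mutant libraries, and to between 27.9 and 35.4 CPM in ABA-treated wild type libraries, against 87.9 to 156 CPM in untreated wild type libraries, with 3 of 6 called lower in the mutant and 5 of 6 in wild type. The 4 guard cell markers summed to 122 to 165 CPM after ABA, against 86.2 to 118 CPM untreated in the mutant, and to 141 to 163 CPM after ABA, against 78.2 to 83.9 CPM untreated in wild type, with 1 called higher and 1 lower in the mutant and 2 higher and 1 lower in wild type. Of the 5 leaf markers, 1 was called lower after ABA in the mutant and 5 in wild type. The part of these shifts in the ABA responses was not tested.

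**Figure D2:**
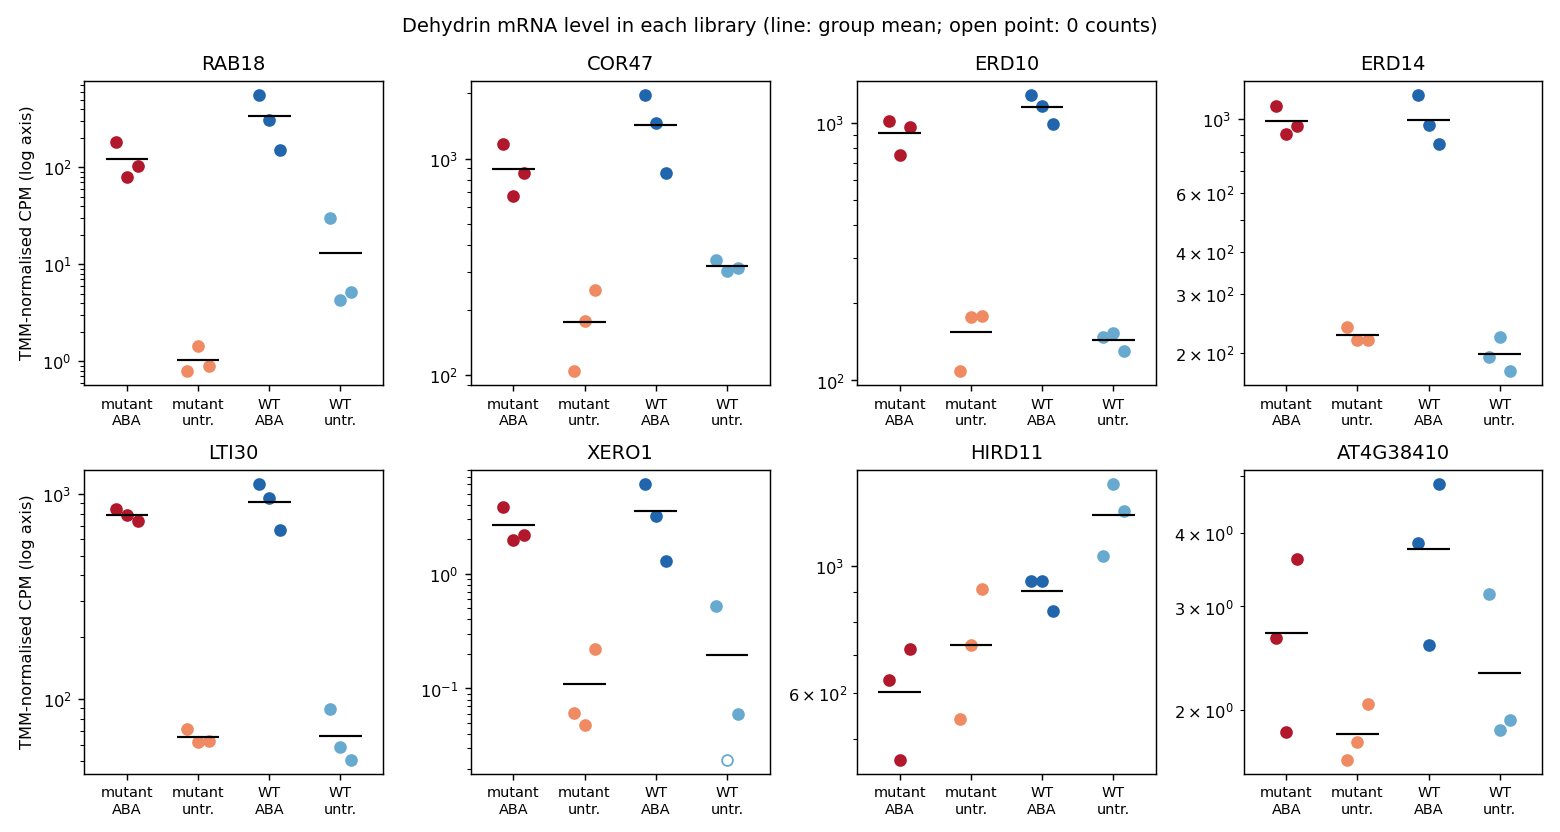
TMM-normalised CPM (log axis, its range differing between panels) of the 8 tested dehydrins in each of 12 libraries, by group (WT, wild type; untr., untreated), with replicates 1 to 3 from left to right and a line at the group mean. In 6 panels every ABA-treated library is above every untreated library of its genotype. HIRD11 is the exception with high levels in all 4 groups, and AT4G38410 overlaps. The share of all tested genes with such a separation was not counted.

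RAB18, a glycine-rich dehydrin widely used as a marker of ABA response, had the largest response. Its level was 181, 80.1 and 104 CPM in the 3 ABA-treated mutant libraries, against 0.791, 1.43 and 0.888 CPM in the 3 untreated mutant libraries. In wild type it was 560, 311 and 149 CPM after ABA, against 29.9, 4.25 and 5.17 CPM untreated. ABA-treated and untreated libraries did not overlap in either genotype, and untreated wild type replicate 1 was far above the other two of its group. The log2 fold change was 6.86 ± 0.86 (SE, n = 3 libraries each) in the mutant (edgeR adjusted p = 5.04e-05), the 47th largest of 21322 genes, and 4.70 ± 0.73 in wild type (edgeR adjusted p = 1.78e-04), the 126th largest. Without untreated wild type replicate 1 the wild type value was 6.17 and with an offset for gene length and GC content it was 5.66.

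LTI30, a basic dehydrin that binds membranes and is also induced by cold, rose after ABA in both genotypes. ABA-treated mutant libraries had 843, 785 and 735 CPM, against 71.7, 61.6 and 62.4 CPM in untreated mutant libraries. ABA-treated wild type libraries had 1121, 952 and 669 CPM, against 88.9, 58.7 and 50.5 CPM in untreated wild type libraries. Every treated library was above every untreated one in both genotypes. LTI30 rose by a log2 fold of 3.59 ± 0.25 (SE) in the mutant (edgeR adjusted p = 4.07e-07) and 3.79 ± 0.25 in wild type (edgeR adjusted p = 2.39e-07).

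XERO1, the Y-type neighbour of LTI30, was a rare transcript. It had 76, 39 and 41 counts in ABA-treated mutant libraries, against 1, 1 and 5 counts in untreated mutant libraries. It had 124, 67 and 30 counts in ABA-treated wild type libraries, against 9, 0 and 1 counts in untreated wild type libraries. Most untreated libraries were thus under the 3-count limit, and all 6 treated ones were above every untreated one. The log2 fold change was 4.44 ± 0.85 (SE) in the mutant (edgeR adjusted p = 0.00119) and 4.10 ± 0.79 in wild type (edgeR adjusted p = 8.72e-04). These sizes rest on a handful of reads. The mutant value was 5.47 without untreated mutant replicate 3, and the wild type value was 6.58 without untreated wild type replicate 1, 3.45 without ABA-treated wild type replicate 1 and 4.79 with the length and GC offset.

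ERD10 and ERD14 are acidic dehydrins that protect other proteins from aggregation in vitro, and ABA raised both in both genotypes. ERD10 had 1018, 748 and 967 CPM in ABA-treated mutant libraries, against 109, 176 and 178 CPM in untreated mutant libraries. In wild type it had 1285, 1166 and 992 CPM after ABA, against 147, 153 and 130 CPM untreated. The treated libraries lay far above the untreated ones, with log2 fold changes of 2.56 ± 0.22 (SE) in the mutant (edgeR adjusted p = 1.99e-06) and 3.00 ± 0.22 in wild type (edgeR adjusted p = 5.31e-07). ERD14 had 1099, 904 and 957 CPM in ABA-treated mutant libraries, against 240, 219 and 219 CPM in untreated mutant libraries. In wild type it had 1183, 959 and 841 CPM after ABA, against 194, 224 and 176 CPM untreated. Again no treated library fell within the untreated range, and the log2 fold changes were 2.13 ± 0.17 (SE) in the mutant (edgeR adjusted p = 1.44e-06) and 2.33 ± 0.17 in wild type (edgeR adjusted p = 5.90e-07).

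COR47, the third acidic member and a cold-regulated gene, varied more between replicates. ABA-treated mutant libraries had 1165, 670 and 859 CPM, against 104, 178 and 248 CPM in untreated mutant libraries. ABA-treated wild type libraries had 1970, 1464 and 861 CPM, against 341, 302 and 313 CPM in untreated wild type libraries. Treated and untreated ranges were separate in both genotypes. COR47 rose by a log2 fold of 2.35 ± 0.35 (SE) in the mutant (edgeR adjusted p = 1.85e-04) and 2.17 ± 0.34 in wild type (edgeR adjusted p = 2.11e-04).

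HIRD11, a small histidine-rich dehydrin that binds metal ions, was abundant without ABA and was not called after it. It had 632, 459 and 717 CPM in ABA-treated mutant libraries, against 541, 728 and 914 CPM in untreated mutant libraries. In wild type it had 942, 941 and 836 CPM after ABA, against 1041, 1392 and 1248 CPM untreated. The mutant ranges overlapped, while the 3 treated wild type libraries were all under the 3 untreated ones. HIRD11 had a log2 fold change of -0.27 in the mutant (95% interval -0.74 to 0.20, edgeR adjusted p = 0.339) and -0.44 in wild type (95% interval -0.91 to 0.03, edgeR adjusted p = 0.108). With the length and GC offset the wild type value was -0.68 and passed the test (edgeR adjusted p = 0.0393).

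AT4G38410, for which only the family is known, was near the low end of the range. It had 2.66, 1.83 and 3.62 CPM in ABA-treated mutant libraries, against 1.64, 1.76 and 2.04 CPM in untreated mutant libraries, and in wild type 3.85, 2.58 and 4.86 CPM after ABA, against 3.15, 1.85 and 1.92 CPM untreated. The ranges overlapped in both genotypes. AT4G38410 had a log2 fold change of 0.56 in the mutant (95% interval -0.12 to 1.25, edgeR adjusted p = 0.173) and 0.70 in wild type (95% interval 0.04 to 1.37, edgeR adjusted p = 0.0700). The wild type value passed the test with the length and GC offset (0.97, edgeR adjusted p = 0.0116), with the replicate block and that offset (0.96, edgeR adjusted p = 0.00509), without untreated wild type replicate 1 (0.998, edgeR adjusted p = 0.0298) and without ABA-treated wild type replicate 2 (0.92, edgeR adjusted p = 0.0318). AT2G21490, likewise known only by its family, had 2, 1 and 1 counts in ABA-treated mutant libraries, 0 in each untreated mutant library, 1, 1 and 0 counts in ABA-treated wild type libraries and 1, 0 and 0 counts in untreated wild type libraries. It was at or under the limit of detection throughout, so no fold is given.

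**Figure D3:**
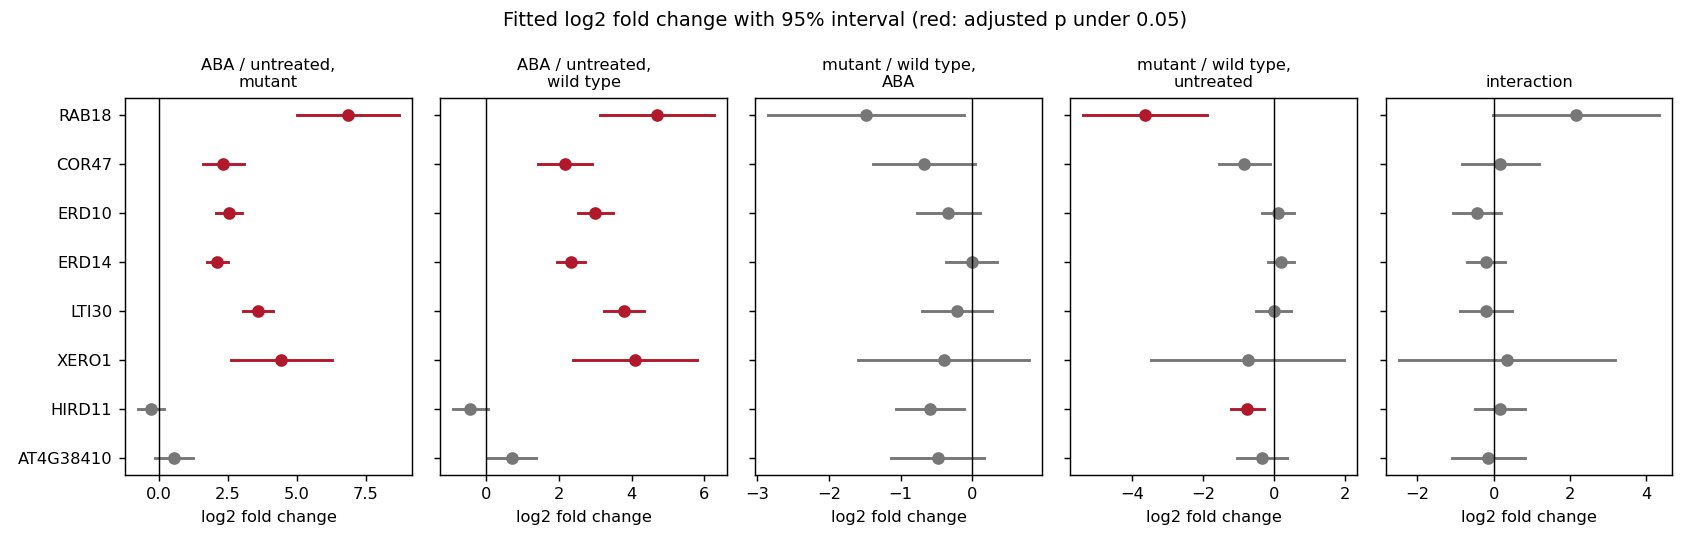
Fitted log2 fold change (point) and its 95% interval (line) of the 8 tested dehydrins in 5 comparisons, red where the edgeR adjusted p was under 0.05; the log2 axis differs between panels. The 6 ABA-responsive genes are red in both ABA panels, RAB18 and HIRD11 are red in the untreated genotype comparison, and no gene is red under ABA or in the interaction.

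Without ABA, 2 dehydrins were lower in the mutant than in wild type, RAB18 and HIRD11, and none was higher. All tested genes gave 14.8% lower and 8.77% higher in this comparison, and the median log2 fold change was -0.54 over the 8 dehydrins and 0.01 over all genes. The dehydrin median is the midpoint of XERO1 (-0.75) and AT4G38410 (-0.34). XERO1 had only 7 counts over the 3 untreated mutant libraries, against 10 over the 3 untreated wild type libraries. This median also rested on untreated wild type replicate 1: without it, 2 were still called lower but the median was 0.04. For the 0 dehydrins called higher, the count was also 0 at an unadjusted p under 0.05 and with DESeq2. The summed leaf markers moved the same way, with all 5 called lower in the untreated mutant, and their part in these differences was not tested. How many of all tested genes had ranges that did not overlap between groups was not counted.

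For RAB18, the 3 untreated mutant libraries (0.791 to 1.43 CPM) were all under the 3 untreated wild type libraries (4.25 to 29.9 CPM). The log2 fold change was -3.64 ± 0.80 (SE; edgeR adjusted p = 0.00668). Without untreated wild type replicate 1 it was -2.16 (edgeR adjusted p = 0.0268), and with the length and GC offset it was -2.52 and narrowly missed the threshold (edgeR adjusted p = 0.0504). HIRD11 was lower in the untreated mutant, at 541 to 914 CPM, against 1041 to 1392 CPM in untreated wild type, again with no overlap. Its log2 fold change was -0.75 ± 0.22 (SE; edgeR adjusted p = 0.0265). That call was lost with untreated wild type replicate 2 (adjusted p = 0.1003), untreated wild type replicate 3 (0.0594), untreated mutant replicate 1 (0.101) or untreated mutant replicate 2 (0.0830) left out of the edgeR fit, while the value stayed between -0.58 and -0.95 over all the libraries left out in turn.

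COR47 showed the same separation of ranges without passing the test. Its untreated mutant libraries had 104 to 248 CPM, against 302 to 341 CPM in untreated wild type, with a log2 fold change of -0.85 ± 0.33 (SE; edgeR adjusted p = 0.0802). It passed without untreated mutant replicate 3 (-1.17, edgeR adjusted p = 0.0298), with the length and GC offset (-1.31, edgeR adjusted p = 0.0364) and in DESeq2 (-0.83, adjusted p = 0.0452). The other five tested members did not pass. ERD10, ERD14 and LTI30 had log2 fold changes of 0.11, 0.19 and -0.02, with 95% intervals of -0.34 to 0.55, -0.17 to 0.55 and -0.51 to 0.47. XERO1 had -0.75 with an interval of -3.47 to 1.98, and AT4G38410 had -0.34 with an interval of -1.04 to 0.36.

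After ABA no dehydrin was called different between mutant and wild type, where 1.61% of all tested genes were called higher and 0.178% lower in the mutant. At an unadjusted p under 0.05 there were 2, RAB18 and HIRD11, both lower, and DESeq2 called 0. The RAB18 log2 fold change was -1.48 (95% interval -2.84 to -0.12, edgeR adjusted p = 0.340), and ABA-treated mutant replicate 1, at 181 CPM, lay above ABA-treated wild type replicate 3, at 149 CPM. The HIRD11 value was -0.59 (95% interval -1.06 to -0.12, edgeR adjusted p = 0.267), although the ranges did not overlap, with 459 to 717 CPM in the mutant and 836 to 942 CPM in wild type. The other six lay between -0.67 for COR47 and -0.01 for ERD14. The median of the 8 was -0.44, against -0.01 over all genes.

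The ABA responses of the 2 genotypes were compared directly with an interaction term, with the response of wild type subtracted from that of the mutant. No dehydrin was called, where 1.66% of all tested genes had a higher response and 0.141% a lower one. DESeq2 called 0, and at an unadjusted p under 0.05 the count was 0 as well. RAB18 came nearest, with 2.16 on the log2 scale (95% interval -0.02 to 4.34, edgeR adjusted p = 0.415), and without untreated wild type replicate 1 this was 0.68. The intervals of ERD14 (-0.71 to 0.31), LTI30 (-0.89 to 0.49), HIRD11 (-0.50 to 0.83) and ERD10 (-1.07 to 0.19) bound how far those responses could differ. The interval of XERO1 (-2.49 to 3.18) spans large differences in both directions at its depth.

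The spread between replicates differed from gene to gene. In ABA-treated wild type the highest library was 4.74 times the lowest for XERO1, 3.74 times for RAB18 and 2.29 times for COR47, but 1.295 times for ERD10 and 1.13 times for HIRD11. Replicate 1 of that group was the highest library for all 6 ABA-responsive members, and replicate 3 the lowest. In untreated wild type the RAB18 range spanned 7.03 times, against 1.13 times for COR47.

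Levels of different genes were set side by side as TMM-normalised CPM per kb of annotated exon. HIRD11 was the leading dehydrin without ABA in both genotypes, at 654 ± 167 CPM per kb in the untreated mutant and 1103 ± 158 CPM per kb in untreated wild type (SD, n = 3), and in neither did its range meet that of ERD14, the next. ABA-treated seedlings had several dehydrins at like levels. In the mutant ERD14 (835 ± 85.5 CPM per kb) and LTI30 (813 ± 55.7) overlapped at the top, above ERD10 (561 ± 88.3), HIRD11 (542 ± 118) and COR47 (387 ± 108), which overlapped their neighbours. In ABA-treated wild type LTI30 (943 ± 236 CPM per kb), ERD14 (841 ± 147), HIRD11 (814 ± 54.8), ERD10 (707 ± 90.6) and COR47 (617 ± 239) each overlapped the next in the order. The last of these overlaps was with RAB18 (312 ± 190), which lay above XERO1. XERO1, AT4G38410 and AT2G21490 were under 5 CPM per kb on average in all 4 groups. COR47 has long annotated exons (2320 bases for 265 residues), which lowers its value on this scale.

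The 9 genes together reached 4314 ± 648 CPM in the ABA-treated mutant and 1352 ± 279 CPM in the untreated mutant, and 5741 ± 1359 CPM in ABA-treated wild type and 1969 ± 150 CPM in untreated wild type (SD, n = 3). The log2 ratio of these means was 1.67 for ABA in the mutant and 1.54 for ABA in wild type. It was -0.41 for mutant over wild type under ABA and -0.54 untreated. No test was made on the sum. Its make-up changed with treatment: per kb, HIRD11 gave 16.6% of the sum in the ABA-treated mutant, against 59.7% in the untreated mutant, and 19.7% in ABA-treated wild type, against 69.7% in untreated wild type. LTI30 gave 25.2% of the sum in the ABA-treated mutant, against 6.42% in the untreated mutant, and 22.1% in ABA-treated wild type, against 4.38% in untreated wild type. RAB18, despite its large fold, gave 3.35% and 6.93% of the sum in the ABA-treated mutant and wild type.

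**Figure D4:**
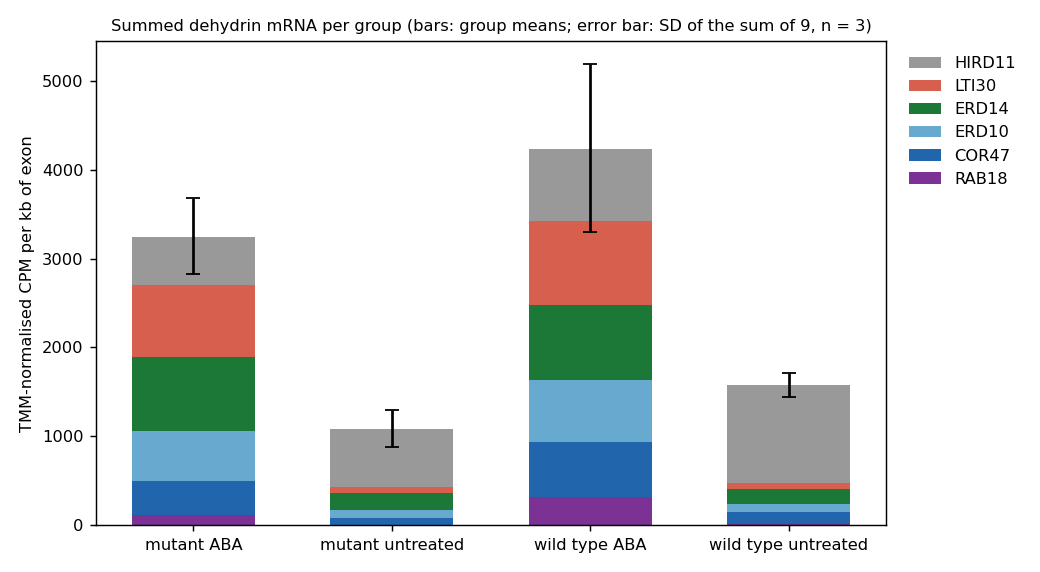
Mean TMM-normalised CPM per kb of exon of 6 dehydrins, stacked by group; the error bar is the SD of the sum of all 9 over 3 libraries, and the 3 rare members are too low to draw. HIRD11 makes up most of the bar in both untreated groups, at 59.7% in mutant and 69.7% in wild type, and under 20% on average in both ABA-treated groups.

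Genes of the ABRE and DRE/CRT routes were read from lists. The first held 7 ABRE-binding bZIP factors and the second 10 CBF and DREB factors and their regulators. Whether any of them acts on the dehydrin promoters was not tested. After ABA 5 of 7 bZIP genes were called higher in the mutant and 6 of 7 in wild type, with 0 lower in each. Of all tested genes, 21.5% were called higher and 21.1% lower in the mutant, and 25.2% higher and 28.2% lower in wild type. ABF3, a bZIP activator of ABA-responsive genes, had log2 fold changes of 2.88 in the mutant (edgeR adjusted p = 2.51e-07) and 2.83 in wild type (edgeR adjusted p = 2.20e-07). ABF2, of the same group, had 1.66 in the mutant (edgeR adjusted p = 1.11e-06) and 1.88 in wild type (edgeR adjusted p = 3.51e-07), and ABI5, which acts in seeds and young seedlings, had 2.68 in the mutant (edgeR adjusted p = 1.25e-06) and 2.42 in wild type (edgeR adjusted p = 1.79e-06). The medians of the 7 were 1.25 in the mutant and 1.39 in wild type. In the untreated comparison EEL alone of the 7 was called, higher in the mutant (0.51, edgeR adjusted p = 0.0335), where 8.77% of all tested genes were higher. The count was 0 without untreated wild type replicate 3, ABA-treated wild type replicate 2, untreated mutant replicate 1 or untreated mutant replicate 2.

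Of the CBF and DREB list, 8 of 10 could be tested. Among the 8, CBF4, DREB2A and DREB2B (3 genes) were called higher after ABA in each genotype, with 0 lower. The share of all tested genes called higher was 21.5% in the mutant and 25.2% in wild type. The median log2 fold change of the 8 was 0.30 in the mutant and 0.73 in wild type. CBF4 had log2 fold changes of 4.29 in the mutant (edgeR adjusted p = 3.34e-05) and 5.31 in wild type (edgeR adjusted p = 3.94e-05). These values rest on 4 counts over the 3 untreated mutant libraries and 1 count over the 3 untreated wild type libraries. In untreated seedlings 3 were called higher in the mutant and 0 lower, where 8.77% of all tested genes were higher and 14.8% lower. The median was 0.79 over the 8. CAMTA3, a calmodulin-binding factor listed as a regulator of CBF genes, was higher by 0.88 (edgeR adjusted p = 0.00381). CBF2, a cold-induced activator, was higher by 2.12 (edgeR adjusted p = 0.00445). The CBF2 value rests on 48 counts over the 3 untreated mutant libraries, against 9 over the 3 untreated wild type libraries. In the latter CBF2 was at 0.120 to 0.292 CPM, around the limit of detection. CBF1 had 69 counts over the 3 untreated mutant libraries, against 1 count over the 3 untreated wild type libraries (edgeR adjusted p = 0.00124). CBF1, CBF3 and CBF2 are near-identical genes that stand in a row, so the counting could have split their reads, and CBF3 was not called, with 17 counts over the untreated mutant libraries, against 35 over the untreated wild type libraries (log2 fold change -1.303, edgeR adjusted p = 0.0805).

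Other stress proteins were read from a list of 25 LEA, COR and KIN genes, of which 21 were tested. The list was named for hydrophilic proteins, but it also holds COR413IM2, which encodes a chloroplast membrane protein. After ABA 21 were called higher in the mutant and 20 in wild type, with 0 lower in each. The median was 4.84 in the mutant, or 4.58 with EM1, which had 0 counts in the untreated mutant, set at its bound (this gene was named after its values were seen), and 4.05 in wild type. In untreated seedlings 8 of 21 were lower in the mutant and 0 higher, where 14.8% of all tested genes were lower and 8.77% higher. The median was -1.44, or -1.40 without EM1, which was at or under the limit of detection in both groups. LEA18, EM6, ECP63, AT3G53040 and AT2G42560, named after their values were seen, also had few counts untreated. Over 3 libraries they had 1, 3, 4, 7 and 3 counts in the mutant, against 4, 4, 4, 6 and 9 in wild type. The medians of this list, also those for ABA, thus include fold changes that rest on few reads. Untreated wild type replicate 1 stood apart in this list. LEA4-5, a group 4 LEA gene named after its values were seen, had 0.304, 4.05 and 0.178 CPM in untreated mutant replicates 1, 2 and 3, against 11.7, 0.554 and 0.240 CPM in untreated wild type replicates 1, 2 and 3. A fit without untreated wild type replicate 1, chosen after seeing the data, gave 7 of 22 lower and a median of -0.12, and its interaction median was -0.37, against 1.06 with all libraries. Without untreated mutant replicate 2, the highest mutant library for LEA4-5, 8 of 22 were lower and the median was -1.67. KIN1, a cold and ABA-induced gene, had a log2 fold change of -3.47 (edgeR adjusted p = 7.39e-05), KIN2, its near-identical neighbour, had -2.38 (edgeR adjusted p = 8.83e-05), and COR413IM2, a chloroplast membrane protein, had -1.08 (edgeR adjusted p = 3.83e-04). The same 3 genes were called higher in the interaction, where 1.66% of all tested genes were, while no dehydrin was. The values were 3.02 for KIN1 (edgeR adjusted p = 0.00874), 2.09 for KIN2 (edgeR adjusted p = 0.0111) and 1.10 for COR413IM2 (edgeR adjusted p = 0.0196). The counting could also have split reads between KIN1 and KIN2, so their values may not be separate results. Leaving out untreated mutant replicate 2 left 1 gene of the list called in the interaction, and leaving out any other library left 2 or 3. Whether the lists differ from the dehydrins was not tested.

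**Figure D5:**
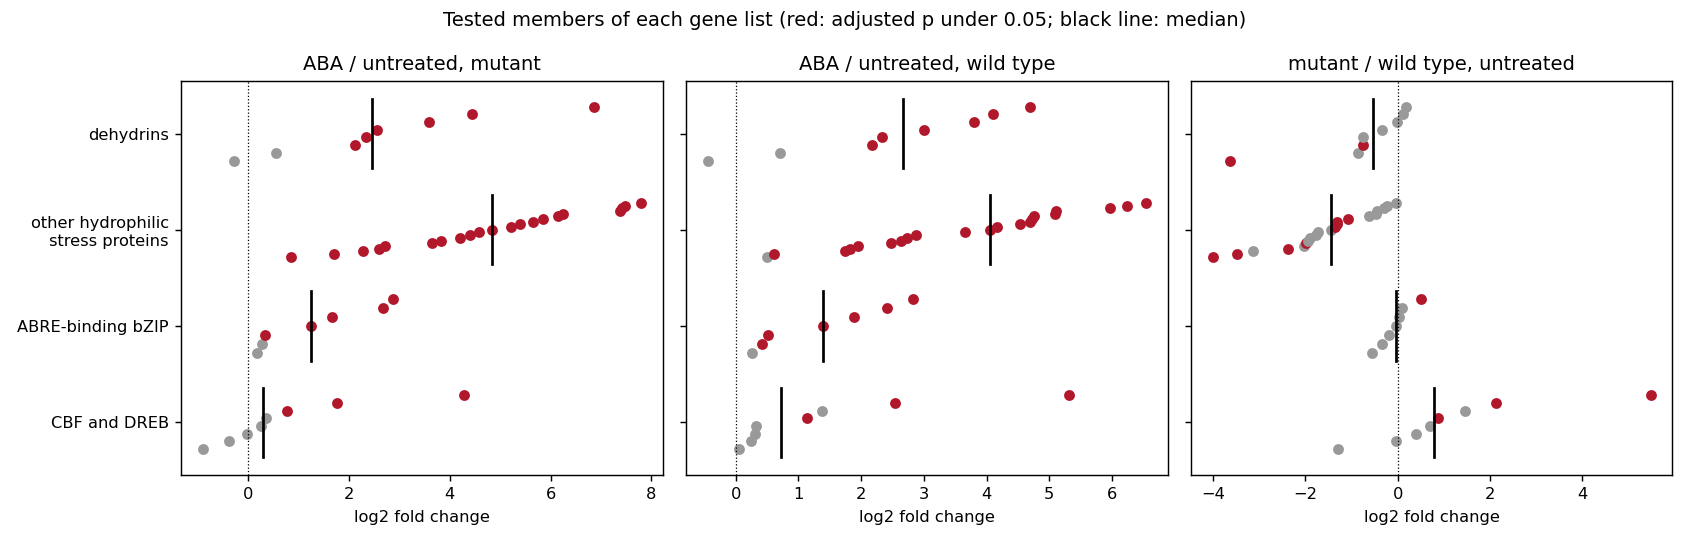
Fitted log2 fold change of each tested gene in 4 lists in 3 comparisons, red where the edgeR adjusted p was under 0.05, with a black line at the list median. The dehydrin medians are 2.45 in the mutant ABA panel, 2.66 in the wild type ABA panel and -0.54 in the untreated genotype panel. The last is the midpoint of AT4G38410 and XERO1, which had few untreated counts. Fitted values of genes with few counts, such as CBF1, depend on the prior count.

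For each dehydrin with a mean of at least 5 CPM, the nuclear genes whose profile over the 12 libraries was most like it were found by the root mean square difference of centred log2 CPM, over 21216 genes. RAB18 was nearest to HAI1, which encodes a protein phosphatase 2C that restrains ABA signalling, with a difference of 0.57 where the median gene had 3.28. TSPO, a membrane protein gene (0.77), and AT4G33550 (0.88) followed. LTI30 was nearest to MYB41 (0.17), a MYB factor gene, and then to AIRP2 (0.18), a RING ubiquitin ligase gene, and AT1G29640 (0.22), with a median of 1.90. ERD10 was nearest to AT1G71910 (0.22), ABF3 (0.22) and FBH3 (0.23), with a median of 1.46. ERD14 was nearest to AT4G01610 (0.14), MYB3 (0.15) and AT3G16800 (0.15), with a median of 1.18. COR47 was nearest to UGT89B1, a glycosyltransferase gene (0.23), AAP1, an amino acid permease gene (0.23), and GPAT5, an acyltransferase gene of suberin synthesis (0.26), with a median of 1.302. HIRD11 was nearest to AT1G21930 (0.12), AT1G50450 (0.12) and AT4G28060 (0.13), with a median of 0.61. These differences describe 12 libraries that share 4 groups.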

How the data were processed

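The deposited table holds raw counts per gene for 12 libraries, with no normalization that its values show; per the submitters' processing notes, reads were handled with Trim Galore 0.3.3 and edgeR on TAIR10. The aligner, counting tool and strand setting were not given in these sources. Per the labels' protocols, RNA was extracted with Trizol, treated with DNase and made into stranded mRNA libraries. Tests used edgeR 4.0.16 (R 4.3.3): filterByExpr by group (21322 of 33610 rows kept, holding 99.96% of counts), TMM factors of 0.857 to 1.12, and 1 quasi-likelihood model with a mean per group and no block. The common biological coefficient of variation was 0.185. The fit was also run on simulated counts with a small set of genes changed, as many up as down. That run cannot show how TMM scaling behaves when as many genes change as after ABA here. Names, exon lengths and sequences come from RefSeq TAIR10.1, which matched 28932 IDs; the counts carry locus IDs without positions. Named genes are all 9 dehydrins, the 3 smallest adjusted p per list and comparison, genes behind counts of 5 or fewer, and 3 most alike profiles per dehydrin. The members and lists were chosen with earlier results of these data known. Alternatives were RLE factors, DESeq2 1.42.0, other filters, fewer groups in the fit, a replicate block, a length and GC offset (21042 genes), and leaving out each library. The 95% intervals are the log2 fold change plus or minus a t quantile times the SE, so they include the spread between libraries. The limit of detection covers counting error only.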

Additional observations from a re-analysis of the deposited data

How the results depend on the processing

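Of 791 alternative values for single dehydrins, 751 kept their direction and their side of the threshold, 9 newly passed it, 6 no longer passed it and 25 changed sign, all 25 among values that did not pass. The 791 include fits without a library from outside the groups compared. Such a library enters a value only through the filter, the scaling and the shared spread, so these values could move little and raise the count that stayed. The 6 ABA responses passed under each alternative run in both genotypes. In untreated seedlings the count of dehydrins lower in the mutant, 2 in the 12-library fit, was 1 with only the groups compared in the fit (HIRD11, adjusted p = 0.0611) and between 1 and 3 with a library left out, losing HIRD11 or adding COR47; with the length and GC offset RAB18 left and COR47 entered. The count lower after ABA in wild type was 1, HIRD11, with the length and GC offset and also 1 with the replicate block and that offset (adjusted p = 0.0428), against 0. With a library left out, values that changed sign ranged in the untreated comparison from -0.18 to 0.26 for LTI30, -0.0095 to 0.31 for ERD10 and -1.77 to 1.73 for XERO1, under ABA from -0.12 to 0.13 for ERD14 and -0.80 to 0.25 for XERO1, and in the interaction from -2.14 to 1.37 for XERO1, -0.093 to 0.50 for COR47, -0.010 to 0.36 for HIRD11 and -0.43 to 0.089 for AT4G38410. Other sign changes in the untreated comparison were LTI30 at 0.019 with the replicate block, ERD10 at -0.061 with the length and GC offset and -0.065 with block and offset, and XERO1 at 0.26 with block and offset, and in the interaction XERO1 at -0.13 with the offset and -0.30 with block and offset. The cause of these changes was not tested. The replicate numbers of the columns are not said to pair libraries. Deviations of same-numbered libraries from their group means had correlations of -0.36 to 0.54 (18 pairs, median -0.010, 6 over 0.1). Different-numbered libraries had -0.54 to 0.57 (36 pairs, median 0.003, 13 over 0.1). The block alone changed no dehydrin call. Of all genes, the 3153 lower in the untreated mutant were 2082 with the offset, 2090 with block and offset and 1914 to 3443 with a library left out, and the 1869 higher were 893 to 2225. Under ABA the 344 higher and 38 lower were 587 and 163 in DESeq2 and 148 to 444 and 11 to 90 with a library left out, and the lower ones were 25 with only those groups, 80 with the offset and 66 with block and offset. In the interaction the 354 higher and 30 lower were 682 and 87 in DESeq2 and 117 to 440 and 12 to 45 with a library left out, and the higher ones were 220 with the offset and 180 with block and offset. The interaction needs all 4 groups, so no fit with fewer was made. CPM without TMM scaling moved the log2 ratio of the summed level to -0.30 in untreated seedlings, against -0.54. Depth limits XERO1, AT4G38410 and AT2G21490.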
